A study of Drosophila melanogaster with 27 samples.

Results

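The least depressed inbred sublines of *Drosophila melanogaster* were compared with an outbred control of the base population from which their lines had been founded. These samples were chosen by their labels: 12 arrays of least depressed sublines, 3 from each of lines 5, 7, 12 and 15, and 3 arrays of the outbred control, which together are 15 of the 27 arrays of the study. Each of the 4 lines descended from a single couple sampled from a large outbred base population of Vigo, and was split into 55 sublines that were kept for 8 generations of sib mating, to a mean inbreeding coefficient of about 0.7. Of the sublines that survived, the 3 with the highest productivity of each line were taken, and 3 with the lowest among those with flies enough for analysis, so "least depressed" is a rank within a line and not an absence of depression. The outbred control came from the same base population without the sib mating, and all flies, control included, were reared on the same yeast and sucrose medium at constant temperature under continuous light. Every array held total RNA of whole adult males taken as a pool, on Affymetrix Drosophila Genome 2.0. The labels do not give the days since eclosion. Each inbred array is a separate subline, while the 3 control arrays are biological replicates of 1 population. Lines were fixed groups in the comparison, so its SE and p-values rest on the spread of arrays within a line or within the control. Variation between founder couples does not enter them. The comparison asks which genes differ with inbreeding where fitness had fallen least.

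A fly's outer skeleton is a layered material of chitin and proteins that the epidermis secretes, mostly in the late pupa and around emergence, and that hardens by oxidation of catecholamines. Adult males invest besides in large flight muscles, packed with mitochondria, in a testis, and in accessory glands whose peptides pass to the female at mating. The gut secretes proteases and carbohydrate-splitting enzymes, and the fat body holds the reserves of lipid and glycogen and releases immune peptides.

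Values are log2 expression, so that a difference of 1 is a 2-fold change. Of 18769 probe sets, each a group of short oligonucleotides that report a transcript, a filter kept the upper 9384 by maximum, those that reached 7.06 in at least 1 of the 27 arrays. The array medians over all probe sets were from 6.32 to 6.36 in the control and from 6.39 to 6.47 in the least depressed sublines, and these ranges did not overlap. The mean of the testis markers was from 11.7 to 12.1 in the sublines and from 11.6 to 11.8 in the control. Markers of accessory gland (12.0 to 12.2 against 11.6 to 11.9), photoreceptors (12.3 to 12.6 against 11.5 to 12.0), muscle (12.2 to 13.5 against 13.8 to 14.1) and gut (10.9 to 12.7 against 11.1 to 11.5) were all strongly expressed, so the tissues of a whole male were present, and their means were not equal in the groups. In a whole body, fewer cells of a type and less RNA per cell cannot be told apart. Transcripts of yolk proteins were also found. Yp1, the gene of yolk protein 1, had a median of 4.52 over the 12 sublines but a maximum of 12.15, and was 4.46, 4.12 and 9.65 in the 3 control arrays. Yolk proteins had a mean of 10.5 (line 5, replicate 2), 11.9 (line 15, replicate 1) and 9.64 (control, replicate 3), against from 4.85 to 6.48 in the other 12 arrays, and oocyte markers had means of 7.62 and 6.68 in the 2 sublines. Each result was therefore also obtained without these 3 arrays. The number codes given with the samples were not balanced either: the 3 control arrays and 3 least depressed sublines (replicate 3 of line 7, replicates 2 and 3 of line 15) carried a single code of 33 or less, and the other 9 sublines a number above it. The labels do not say what the codes stand for.

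Expression differed from the control in 4770 of the 9384 probe sets (limma over 15 arrays, 2-sided, adjusted p under 0.05). Of them 3261 (34.8% of those tested) were higher and 1509 (16.1%) were lower in the mean of the 4 lines, and 4667 had the 4 lines on the same side of the control. Counts of list members below are to be read beside the shares of 34.8% and 16.1%. The values of all 12 sublines lay above all 3 control arrays in 1736 probe sets (18.5%) and below them in 958 (10.2%). Most changes were small, and falls were more frequent among the large ones. A change of at least 2-fold was found in 181 higher and 279 lower probe sets, and one of at least 8-fold in 2 higher and 29 lower. The median difference over all probe sets was 0.12. When each array was centred on its own median, which brought this to 0.03, the calls were 2170 higher and 1952 lower, so that the share of higher calls went from 68.4% to 52.6%. With the set of sample codes in the model 1379 were higher and 878 lower, and 2206 of the 4770 calls were then found in the same direction. With the 4 line means as replicates, so that differences between lines enter the spread, 2915 were higher and 1403 lower.

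**Figure D1:**
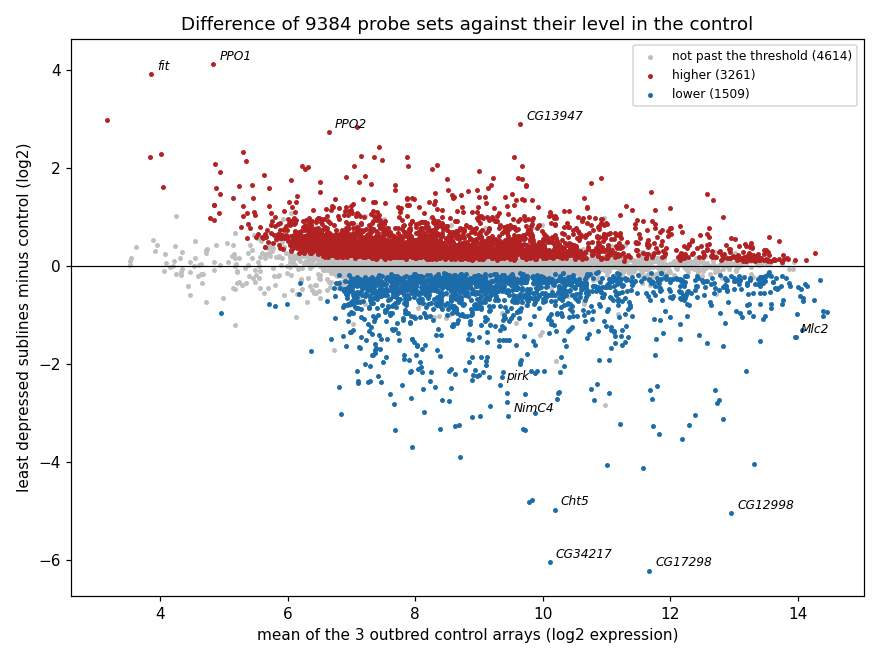
Difference between least depressed sublines and outbred control (mean of the 4 lines, log2) plotted against the mean of the 3 control arrays (log2 expression) for the 9384 probe sets tested, coloured by call at an adjusted p under 0.05. Of the probe sets that changed at least 8-fold, 29 fell, and the 2 that rose, PPO1 and fit, started from low control levels.

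The filter bears on the low end of that plot. In 1266 probe sets all 3 control arrays were below 7.06, so that they were kept only through inbred arrays, and 672 of these were called higher and 14 lower. Among the 8118 with at least 1 control array at or above that value, 2589 were higher and 1495 lower. The reverse holds for 492 probe sets in which all 12 least depressed sublines were below 7.06, of which 180 were lower and 102 higher. CG17298, CG34217 and Cht5 are of this kind, and passed the filter only through other arrays.

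Cuticle protein genes were 8 of the 29 probe sets that fell by at least 8-fold. Of the 122 probe sets of the cuticle protein list 32 passed the filter, and of these 23 were lower and 3 higher in the least depressed sublines, with a median difference of -1.93 against 0.12 over all probe sets tested. Over all probe sets tested 16.1% were lower and 34.8% higher. In 21 cuticle probe sets all 12 sublines lay below all 3 control arrays (10.2% of all probe sets tested were). The median of the list was between -2.05 and -1.42 in each line. Centring left 23 lower and 3 higher, and the sample code set in the model left 16 lower and 2 higher. Of all 9384 probe sets 1952 were lower with centring and 878 with the codes. The other members did not reach the level of the filter in any array. With no filter 46 members of the list were lower.

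Cpr97Ea, a chitin-binding cuticle protein, was 11.55, 10.93 and 10.56 in the control arrays, and from 5.67 to 7.74, with a median of 7.27, in the sublines. The groups were far apart, and the difference of -4.07 ± 0.36 (SE, n = 12 and 3 arrays) amounted to a 16.8-fold fall (limma, adjusted p = 2.46e-06). Cpr62Bc was 12.72, 12.14 and 11.66 in the control and from 6.29 to 10.14 in the sublines, and fell by 3.54 on the log2 scale. Cpr97Eb and Vajk3, further structural proteins of the cuticle, differed by -3.43 and -3.25. All 4 were above 10 in every control array, and no subline reached the lowest control array in any of them. The 3 members that rose were Cpr67Fb (1.87), Cpr65Au (1.18) and Cpr51A (0.70). Acp65Aa, which the accessory gland list holds by its symbol although it encodes an adult cuticle protein, fell from 12.85, 12.81 and 12.45 in the control to a median of 10.38 in the sublines (difference -2.53, adjusted p = 0.00248). With the sample code set in the model Acp65Aa and Vajk3 were not past the threshold (adjusted p = 0.116 and 0.0687, limma).

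Among the 12 largest falls was Cht5. This gene, a chitinase that digests the old cuticle at a moult, was 10.62, 10.04 and 9.90 in the control and between 4.65 and 5.85 in the 12 sublines, a 31.4-fold fall (difference -4.97 ± 0.15, SE, limma adjusted p = 2.15e-10). Within lines the SD was from 0.10 to 0.26 over 3 sublines. The chitin synthase kkv differed by -3.34, and verm and serp, deacetylases that modify chitin, by -3.27 and -2.71. These 3 genes belong to no list and were picked after their values were seen, so they do not describe chitin enzymes as a group. In all 3 the 12 sublines lay below the 3 control arrays.

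Several genes without an established name fell even further. CG17298 had the largest difference of all, -6.21 ± 0.20 (SE), which is a 74.3-fold fall (limma, adjusted p = 2.52e-10). It was 12.27, 11.70 and 11.02 in the control arrays and from 5.21 to 6.06 in the sublines, and the 4 lines differed from the control by -6.31, -6.27, -6.04 and -6.24. CG34217 was 10.49, 10.25 and 9.58 in the control and from 3.85 to 4.37 in the sublines, a difference of -6.05. Neither gene had a subline near the control. CG12998 (-5.05), CG8534 (-4.81, a member of the fatty acid elongase family), CG11413 (-4.11), CG8736 (-4.05) and CG13043 (-3.90) completed the list of strongest falls together with dyw (-4.78), or daywake, a gene of the juvenile hormone binding protein family, and the peroxidase Pxd (-3.68). Their sublines were all below the control arrays. Several falls shared the order within the control. In CG17298, CG34217, CG12998, CG11413, CG8736 and dyw replicate 1 was the highest and replicate 3 the lowest of the 3 control arrays. Cht5, Cpr97Ea, Cpr62Bc and Vajk3 had that order too. It was noticed after the values were seen, and its share over all probe sets was not counted. Replicate 3 is the control array with yolk transcripts, and a link with this order was not tested.

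**Figure D2:**
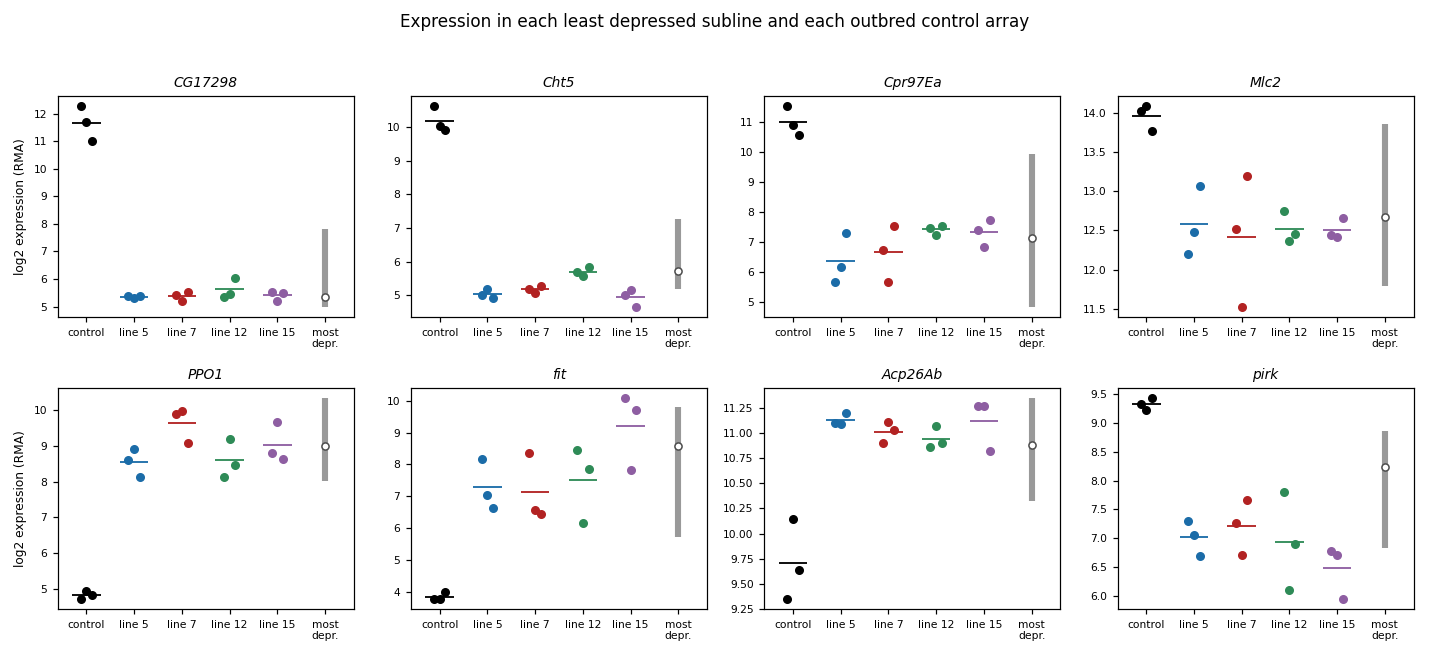
Log2 expression of 8 genes in each array: 3 outbred control arrays (black) and 3 least depressed sublines of each line (coloured), with horizontal bars at group means, and the range (grey) and median (open circle) of the 12 most depressed sublines. In all 8 genes the 12 least depressed sublines lie entirely on one side of the 3 control arrays, as for CG17298 (5.21 to 6.06 against 11.02 to 12.27) and PPO1 (8.13 to 9.96 against 4.72 to 4.95).

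Muscle transcripts were lower as well. Of 26 probe sets of sarcomere genes 18 were lower and 2 higher, with a median difference of -0.90, and in 16 all 12 sublines were below the control (10.2% of all probe sets tested were). Mlc2, the regulatory light chain of myosin, was 14.02, 14.08 and 13.76 in the control and from 11.52 to 13.19 in the sublines, and fell 2.73-fold (difference -1.45 ± 0.25, SE, limma adjusted p = 0.000372). Paramyosin (Prm, -1.57), troponin T (up, -1.37), flightin (fln, -1.30), the titin-related kinase Strn-Mlck (-1.62) and the flight muscle actin Act88F (-1.01) moved alike, so thick and thin filaments were both represented. Argk1 (0.16) and 1 probe set of Mf, myofilin (0.59) were the members that rose, whereas the other Mf probe set was lower (-0.26), so the probe sets of Mf disagree. The mean of the list was lower than in the control in every subline, with differences from -0.28 (line 7, replicate 3) to -1.07 (line 7, replicate 2). The lowest and the highest subline were thus of the same line, and the F test among lines found no member of the list different.

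Transcripts of mitochondrial energy metabolism showed a smaller fall that ran through most members. Of 79 probe sets of oxidative phosphorylation 55 were lower and 7 higher (median -0.30), and 47 had all sublines below the control. Over all probe sets tested 16.1% were lower and 34.8% higher, and 10.2% had all 12 sublines below the control. ND-ACP, the acyl carrier protein of complex I, was 12.27, 12.20 and 12.29 in the control and had a median of 11.48 in the sublines, with an adjusted p of 0.000157 (limma, difference -0.77). ATPsynC, the membrane ring subunit of the ATP synthase, stood at 14.06, 14.08 and 13.96 against a median of 13.43 (difference -0.61). Both kept their groups apart. Most of the few that rose had symbols of the same form. Symbols ending in L, with or without a number after it, which mostly denote paralogs of the standard subunits, accounted for 19 of the probe sets, of which 6 were higher and 2 lower (COX7AL2 at -0.52, and ND-MNLL at -0.40, a standard subunit of complex I whose name happens to end so), while among the other 60, 1 (ND-B8) was higher and 53 were lower. This division was made after the values were seen. The symbols ending in L were near the shares over all probe sets tested, 34.8% higher and 16.1% lower. As a group they thus did not rise more often than other probe sets. With each array centred, 2 probe sets of the whole oxidative phosphorylation list were higher and 58 lower. In glycolysis 10 of 18 probe sets were lower and 1 higher (median -0.26), with Pfk, phosphofructokinase (-0.92), and Gpdh1, glycerol-3-phosphate dehydrogenase (-0.91) the furthest. Gpdh1 has 4 probe sets, of which 2 were lower and 2 (-0.27 and -0.38) were not past the threshold. Tps1, which makes trehalose, the circulating sugar, was the member that rose (0.34), a call lost with the sample codes in the model (adjusted p = 0.0662, limma). With the sample code set in the model 28 probe sets of oxidative phosphorylation were lower and 0 higher, and 3 of glycolysis were lower. In that model 878 of all 9384 probe sets were lower and 1379 higher.

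The 3 genes of larval serum and fat body proteins were all lower. Fbp2 was 8.11, 7.92 and 7.33 in the control and from 4.63 to 7.24 in the sublines (difference -2.43, limma adjusted p = 0.000179). Fbp1, the receptor by which the fat body takes up serum proteins, had a difference of -2.35, but overlapped, since its highest subline was at 7.02 and its lowest control array at 6.71. Lsp2, the larval serum protein 2, differed by -0.69 in the mean of lines and in line means from -1.95 in line 5 to 0.29 in line 15 (F test of limma among lines, adjusted p = 0.00326). The 3 sublines with a low sample code were also the 3 nearest to the control in the mean of these genes, at -0.64 (replicate 3 of line 7), -0.81 and -0.90 (replicates 2 and 3 of line 15), against from -2.78 to -1.55 in the other 9. With the codes in the model Fbp1 and Lsp2 lost their call (adjusted p = 0.132 and 0.192, limma). Lsp2 also lost it without line 5 (adjusted p = 0.208), and with all 27 arrays in the fit (0.276), where Fbp1 did so too (0.0945).

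Adult genes of fasting and storage went in both directions, with 12 of 29 probe sets higher and 8 lower, beside 34.8% and 16.1% of all probe sets tested. The median of the list was 0.06, beside 0.12 over all. Below the control were bmm, or brummer, the lipase of stored triglycerides (11.11, 11.02 and 11.08 in the control, from 9.22 to 10.38 in the sublines, difference -1.29), Lip4 (-0.99) and Pepck1 (-0.76), which starts gluconeogenesis. Akh, the adipokinetic hormone that mobilizes reserves, was 6.60, 6.49 and 7.03 in the control and from 7.50 to 8.21 in the sublines, a 2.31-fold rise (limma, adjusted p = 7.76e-06). The insulin-like peptide Ilp2 (0.83) and tobi, a glucosidase gene that responds to brain insulin (2.05), rose too. The strongest rise of the list was that of fit, a satiety peptide of the fat body. It was 3.78, 3.78 and 4.01 in the control and between 6.17 and 10.08, with a median of 7.84, in the sublines, so the groups were apart although the sublines spanned almost 4 units (difference 3.93 ± 0.54, SE, 15.2-fold, limma adjusted p = 7.32e-05). In line 15 the difference was 5.35, and in the other lines from 3.28 to 3.64. The lines were not past the F test for fit (adjusted p = 0.26). All control arrays of fit and of Akh were below 7.06, so both genes passed the filter only through inbred arrays.

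The largest rise was in a gene of melanization. PPO1, a prophenoloxidase that crystal cells release to blacken wounds, was 4.72, 4.95 and 4.83 in the control and from 8.13 to 9.96 in the 12 sublines, a 17.5-fold difference (4.13 ± 0.25, SE, limma adjusted p = 1.58e-07). PPO2, its counterpart that forms the crystals of these cells, was 6.54, 6.74 and 6.65 against from 8.57 to 10.16 (difference 2.74). Both genes rose in every line, by between 3.72 and 4.82 for PPO1 and between 2.34 and 3.15 for PPO2, and both passed the filter only through inbred arrays. Among the other 19 probe sets of the blood cell list 4 were higher and 6 lower, beside 34.8% and 16.1% of all probe sets tested. NimC4, a receptor by which phagocytes take up dying cells, was 9.61, 9.52 and 9.21 in the control and from 5.26 to 7.46 in the sublines (difference -3.07, limma adjusted p = 6.29e-07). The collagen IV chains vkg (-1.43) and Col4a1 (-1.35), which blood cells and fat body make for basement membranes, fell together, with all 12 sublines below the control in both. Hml (-0.04) and eater (0.16), markers of the phagocytes themselves, were not past the threshold.

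Among immune regulators, pirk, which restrains the Imd pathway that senses bacterial peptidoglycan, had the largest difference. It was 9.33, 9.23 and 9.43 in the control and from 5.94 to 7.79, with a median of 6.84, in the sublines (difference -2.42 ± 0.28, SE, 5.36-fold lower, limma adjusted p = 2.22e-05). Rel, the NF-kappaB factor of the pathway, fell by 1.02 and kept the groups apart, and PGRP-LF, a receptor that dampens it, differed by -0.69. In contrast, imd (0.44) and Dredd (0.35), the adaptor and the caspase of the same pathway, were higher. In all, 5 of 13 members rose and 4 fell, beside 34.8% and 16.1% of all probe sets tested. With the sample codes in the model 1 was higher and 2 were lower. With the sample code set in the model PGRP-LF and imd were not past the threshold (adjusted p = 0.138 and 0.161, limma). The effectors were few: of 7 antimicrobial peptides 1 rose and 1 fell. Drsl5, a Drosomycin-like peptide, was 8.52, 7.57 and 7.58 in the control and from 8.82 to 10.50 in the sublines, and CecB, a cecropin, differed by -0.56, a call that was lost without control replicate 1 (adjusted p = 0.172, limma) or replicate 3 (0.0847) or without the arrays with yolk transcripts (0.118). The Bomanins, short peptides induced by the Toll pathway, had 3 members higher and 1 lower of 8, near the shares over all probe sets. BomBc3 (1.80) and BomS5 (1.38) were well clear of the control. The third, BomT3, lost its call with centring (adjusted p = 0.07, limma), with the sample codes (0.295) and without control replicate 1 (0.0517) or 2 (0.0666). BomT2 was from 10.93 to 11.02 in the control, and in the sublines it went from 3.25 to 11.54, with a median of 10.07, and was not past the threshold (adjusted p = 0.0696, limma).

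**Figure D3:**
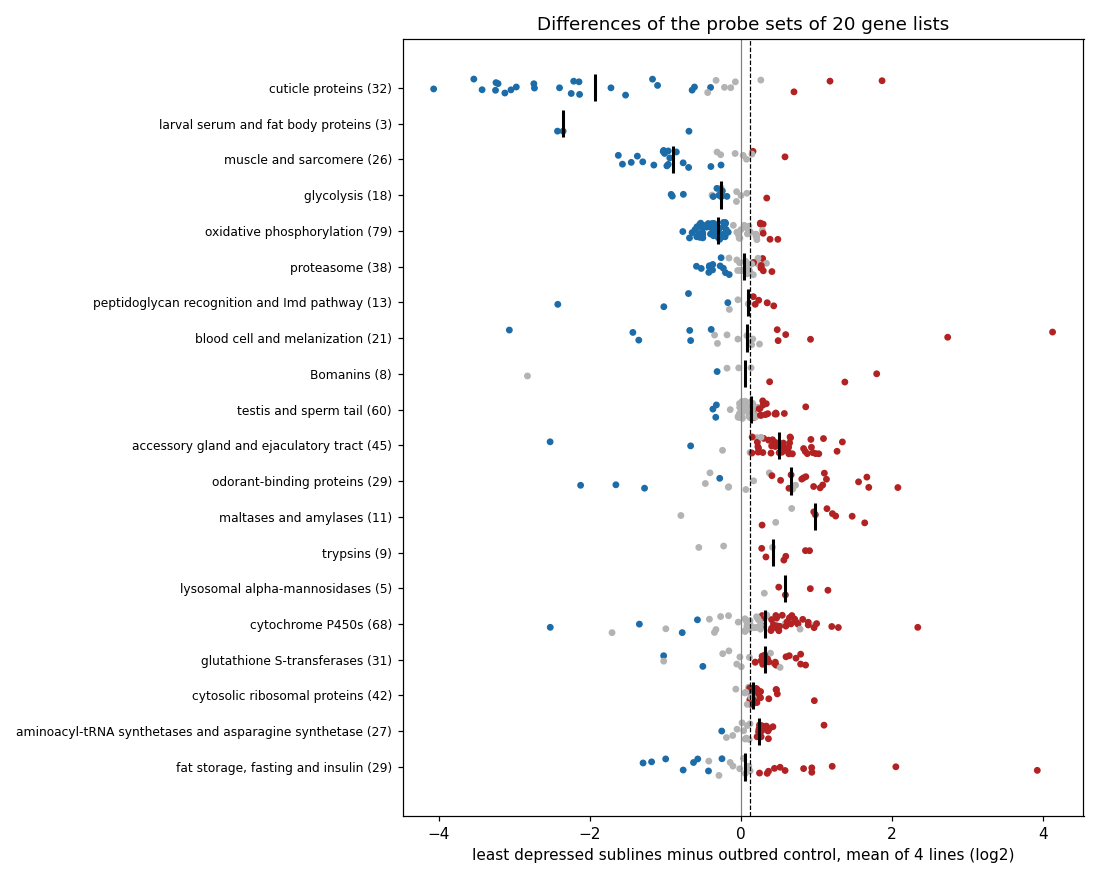
Difference between least depressed sublines and outbred control (mean of 4 lines, log2) for each probe set of 20 gene lists, with the number tested in brackets: red points were higher and blue ones lower at an adjusted p under 0.05, grey ones were not past it, the thick bar is the median of the list and the dashed line that of all 9384 probe sets (0.12). Cuticle (-1.93), larval serum (-2.35) and muscle (-0.90) medians lie furthest to the left, and maltases and amylases (0.99) and odorant-binding proteins (0.67) furthest to the right.

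Seminal fluid genes were higher in the sublines. Of 45 probe sets of the accessory gland and ejaculatory tract 38 were higher and 2 lower (median 0.51), and in 27 all 12 sublines were above all 3 control arrays (18.5% of all probe sets tested were). The 2 that fell were Acp65Aa, the cuticle protein described above, and the serpin Spn28Dc (-0.66), a regulator of melanization. Acp26Ab was 9.35, 10.14 and 9.64 in the control and from 10.83 to 11.27 in the sublines, a 2.54-fold rise (difference 1.35 ± 0.13, SE, limma adjusted p = 5.28e-06). Sex peptide, SP, which makes mated females lay eggs and refuse males, was 12.32, 12.62 and 12.46 against from 12.97 to 13.21 (difference 0.63). Sems and intr, which belong to the proteins that keep sex peptide bound to stored sperm, rose by 1.03 and 1.27, and Dup99B, a relative of sex peptide made in the ejaculatory duct, by 0.22. Acp62F (-0.24) and Acp95EF (0.21) were not past the threshold. Line medians were close, from 0.44 in line 5 to 0.53 in line 15. With each array centred 32 were higher and 3 lower, and with the sample code set in the model 30 and 1.

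Testis genes stayed near the bulk of the transcriptome. Of 60 probe sets 18 were higher and 3 lower, with a median of 0.13 beside 0.12 over all, and with each array centred 4 were higher and 3 lower. The list was led by dj, or don juan, a protein of the sperm tail (0.86), whose call was lost with centring (adjusted p = 0.0556, limma). It was also lost without control replicate 1, 2 or 3 (adjusted p = 0.173, 0.0645 and 0.0508, limma). Without line 5 (0.0956) or the arrays with yolk or oocyte transcripts (0.0742) dj was not past the threshold either. The same held with the sample codes (0.137), the arrays of 1 low code (0.156) and all 27 arrays in the fit (0.069). Mst57Da and Mst57Dc (0.47 and 0.46) are in the list by symbol but are peptides of the accessory gland. Core sperm tail genes such as Mst98Ca (-0.03), Mst84Da (0.04) and the testis tubulin betaTub85D (-0.02) differed little from the control and were not past the threshold.

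Enzymes that split carbohydrates were higher. Of 11 maltase and amylase probe sets 8 rose and 0 fell, with a median of 0.99. Mal-A7 was 9.66, 10.02 and 9.53 in the control and from 10.44 to 12.37 in the sublines (difference 1.64, 3.12-fold, limma adjusted p = 4.74e-05), and Mal-A8 (1.47), Mal-B2 (1.26) and Mal-A6 (1.21) followed it, with all 4 clear of the control. The mean of the list was 0.03 above the control mean in replicate 2 of line 5, one of the arrays with yolk transcripts, and from 0.43 to 1.21 in the other 11 sublines. Among proteases, 6 of 9 trypsins were higher and 0 lower, as iotaTry (0.91) and lambdaTry (0.86), and of 11 Jonah proteases 4 were higher, about the 34.8% over all, and 1, Jon44E (-0.96), lower. Centring, and all 27 arrays in the fit, left 2 higher. Jon25Bi and Jon25Biii lost theirs with each array centred (adjusted p = 0.0784 and 0.0968, limma) and without control replicate 1 (0.148 and 0.269), and Jon44E without control replicate 2 (0.0688). Of 5 lysosomal mannosidases 4 were higher, with LManIII at 1.15 and LManV at 0.92. Neither was past the threshold without control replicate 1 (adjusted p = 0.134 and 0.0645, limma) or with the sample codes in the model (0.353 and 0.223).

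Of the detoxification lists, cytochrome P450s had 31 of 68 probe sets higher and 4 lower, and glutathione S-transferases 18 of 31 higher and 2 lower, both with a median of 0.32 beside 0.12 over all probe sets, of which 34.8% were higher. With each array centred the higher calls were 24 and 13, and with the sample codes in the model 18 and 7. Cyp4ac2 was 5.30, 4.83 and 5.75 in the control and from 7.04 to 8.43 in the sublines, a 5.07-fold rise (limma, adjusted p = 1.16e-06). Its control arrays were all below 7.06, so Cyp4ac2 passed the filter only through inbred arrays. Cyp4e3 went the other way, from 11.48, 11.81 and 11.73 to a median of 9.18, with a range from 8.01 to 11.30 that reached nearly to the control. GstT4 and GstE9 rose by 0.86 and 0.79. GstS1, an abundant glutathione S-transferase of flight muscle, was at 13.57, 13.63 and 13.28 in the control and fell by 1.02, as did the sarcomere genes. Of UDP-glycosyltransferases 8 of 22 were higher and 3 lower, near the share over all. The metallothionein MtnC, which binds metals, was 8.45, 8.95 and 8.44 in the control and from 9.46 to 10.53 in the sublines (difference 1.42), and Npc2d, of a sterol-binding family, rose by 1.36.

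Calls among components of protein synthesis depended on the scaling and on the sample codes. Cytosolic ribosomal proteins had 33 of 42 probe sets higher and 0 lower with a median of 0.16, near the 0.12 of all probe sets, but 12 higher with each array centred, when the median was 0.07, and 6 with the codes in the model. Aminoacyl-tRNA synthetases had 16 of 27 higher and 1 lower (9 and 3 with centring, 6 and 0 with the codes). The asparagine synthetase AsnS, counted with them, was 7.64, 7.69 and 7.93 in the control and from 8.54 to 9.34 in the sublines, a 2.15-fold rise (limma, adjusted p = 1.19e-06). In the secretory pathway 17 of 40 were higher and 4 lower, beside 34.8% and 16.1% over all, and 7 and 5 with centring and 2 and 1 with the codes. The proteasome was divided along its structure, as was noticed after the values were seen. Of 14 probe sets of the regulatory particle, the cap that unfolds substrates, 13 were lower, led by Rpn1 (-0.59) and Rpn2 (-0.52), while of 12 of the core particle 1 was higher and 0 lower. Paralogs of these subunits with symbols ending in R or T, several of them known from the testis, had 6 of 12 higher, beside 34.8% over all. The whole proteasome list had 7 higher and 13 lower, but 1 and 15 with centring and 1 and 12 with the codes. Without the arrays with yolk or oocyte transcripts it had 3 and 9, so most of its higher calls depended on the setting. Mitochondrial ribosomal proteins had 14 of 71 higher and 14 lower.

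Genes of the senses and of the clock changed individually. Odorant-binding proteins had 16 of 29 probe sets higher and 4 lower (median 0.67). Obp56h was 4.95, 4.51 and 5.15 in the control and from 5.77 to 7.53 in the sublines (difference 2.08), and Obp56d 11.11, 10.32 and 10.81 against from 11.61 to 13.03 (difference 1.69). The control arrays of Obp56h were all below 7.06, so this gene passed the filter only through inbred arrays. Obp83g (-2.12) and Obp83cd (-1.65) were lower. In the phototransduction list 8 of 24 were higher and 3 lower, close to the 34.8% and 16.1% over all probe sets, with the arrestin Arr2 at 12.14, 11.70 and 12.17 in the control and from 12.58 to 13.03 in the sublines. Of 14 clock probe sets 5 were higher, near the 34.8% over all, and 5 were lower, beside 16.1% over all. The photoreceptor cry (0.91) and the repressor vri (0.63) rose, and tim, or timeless, was lower in both its probe sets (-0.77 and -0.52).

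No member of the yolk, eggshell, oocyte or DNA replication lists was past the threshold in limma over 15 arrays, with 0 of 3, 0 of 9, 0 of 17 and 0 of 12. Without the 3 arrays with yolk or oocyte transcripts 1, 1, 1 and 2 members were lower and 0 were higher. Removal of these arrays left 2601 higher and 1228 lower calls over all probe sets. The cuticle list then had 3 higher and 22 lower, muscle 1 and 17, oxidative phosphorylation 3 and 49, the accessory gland list 34 and 2 and maltases 7 and 0, while the testis list had 8 and 2 and ribosomal proteins 21 and 0.

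**Figure D4:**
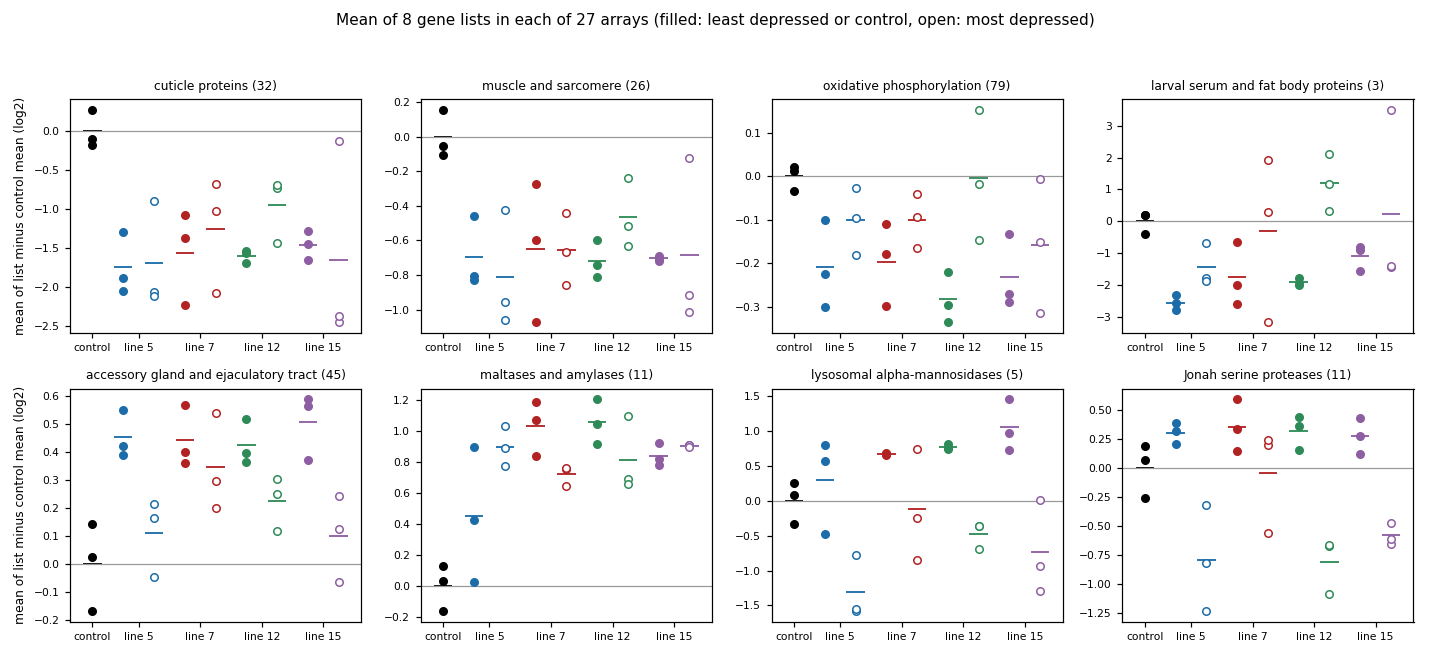
Mean of the probe sets of 8 gene lists in each of the 27 arrays, as the difference from the mean of the control (log2), with filled points for outbred control (black) and least depressed sublines (coloured by line), open points for the most depressed sublines of the same line, and bars at group means. Every least depressed subline is below the 3 control arrays for cuticle proteins (-2.23 to -1.07) and above them for the accessory gland list (0.36 to 0.59), with the control arrays between -0.18 and 0.27 for the cuticle list.

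Each line was also compared with the control by itself. Line 5 had 4076 probe sets past the threshold (43.4%), line 7 3413 (36.4%), line 12 4190 (44.7%) and line 15 3900 (41.6%), all by limma at an adjusted p under 0.05. Higher and lower calls were 2812 and 1264 in line 5, 2249 and 1164 in line 7, 2711 and 1479 in line 12, and 2608 and 1292 in line 15. The 4 comparisons share the 3 control arrays, so their likeness includes any departure of these arrays. The largest falls were nearly the same genes in each line, CG17298 and CG34217 being first and second in all 4, followed by CG12998 in lines 5 and 7, dyw in line 12 and Cht5 in line 15. Among the 3 largest rises of each line were PPO1 in all 4, fit in lines 7, 12 and 15, CG33109 in lines 5 and 15, CG31832 in lines 5 and 7, and Desat2 in line 12.

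A direct test among the 12 least depressed arrays, in which the control has no part, found 419 probe sets with different levels in the 4 lines (limma F test, adjusted p under 0.05, 4.47% of those tested). The widest range of line means, 5.05, was that of Desat2, which desaturates the precursors of cuticular hydrocarbons. Its values in line 12 went from 9.32 to 10.85, whereas the other 9 sublines were between 4.60 and 5.58 and the control at 5.02, 6.13 and 6.34 (adjusted p = 9.48e-05, limma). Of the control and least depressed arrays, only those of line 12 brought Desat2 past the filter. High values in line 12 alone were also found in CG7900, with 12.73, 12.03 and 12.78 against from 8.33 to 9.17 in the other lines and from 10.49 to 10.98 in the control, which therefore lay between them. CG13325 and CG15369 were highest in line 12 too, with line means of 9.86 and 8.72. CG15263 separated the lines into pairs, with line means of 8.63 and 8.95 in lines 7 and 12 and of 4.74 and 5.08 in lines 5 and 15.

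Line 7 carried low values of Pis and CG10725. CG10725 was 4.90, 4.69 and 4.87 there, and from 7.56 to 10.20 in the other lines. Pis, the phosphatidylinositol synthase, had a difference from the control of -3.59 in line 7 against from 0.56 to 0.68 in the others by the probe set with the widest range, with a line 7 minimum of 5.43. A second probe set of the same gene gave line means of 9.04 in line 7 and from 9.67 to 9.88 in the others, a far smaller gap, so the probe sets of Pis disagree in size. Line 15 alone was low in CG13658, at 4.90, 5.04 and 5.00, while the other lines had between 7.63 and 9.04. The rise of CG31832 belonged mostly to lines 5 and 7, with differences of 4.08 and 3.28 from the control against 0.87 and 0.72 in lines 12 and 15 (F test of limma, adjusted p = 0.0051).

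Numbers in the F test changed with the arrays used, from the 419 of the full set. It found 148 probe sets without the arrays with yolk or oocyte transcripts, 208 when the third subline of line 12 was left out, 216 and 279 without the first or the second of line 7, 231 and 241 without the second or the third of line 5, and 271 without the first of line 15. Each of these settings leaves 2 sublines in a line. Of the 8 genes with the widest range, CG15369 was not past the threshold without the yolk arrays (adjusted p = 0.051, limma).

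**Figure D5:**
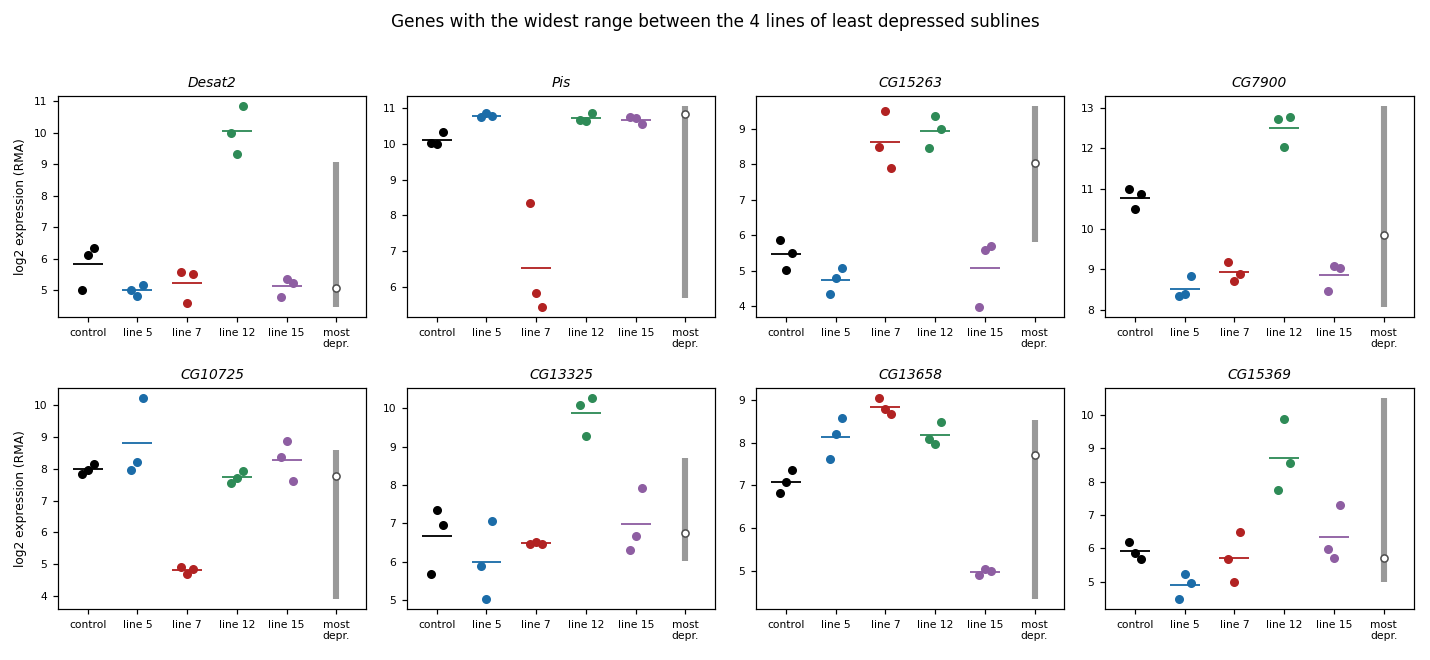
Log2 expression of the 8 genes with the widest range between line means of the least depressed sublines, in each of the 3 control arrays (black) and 12 sublines (coloured by line), with bars at group means, and the range (grey) and median (open circle) of the 12 most depressed sublines. Desat2, CG7900, CG13325 and CG15369 are high in line 12, Pis and CG10725 low in line 7, and CG13658 low in line 15.

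The most depressed sublines of the same lines were set against the least depressed ones in a comparison added after the data were seen (limma over all 27 arrays in 9 groups). Of the 9384 probe sets 1426 (15.2%) differed between the levels, 839 being higher (8.94%) and 587 lower (6.26%) in the least depressed sublines. The sample codes nearly coincide with the levels, since 11 of the 12 most depressed arrays carried a low code only, as did the control, and 9 of the 12 least depressed a high one. With the codes in the model 381 probe sets differed, 260 higher and 121 lower, and 325 of the 1426 calls were found in the same direction. Level and code can thus be told apart only in part. Of the 117 probe sets called at least 4-fold from the control, 14 differed between the levels. PPO1 had a median of 8.85 in the least and 9.00 in the most depressed sublines, and a difference of -0.22 between the levels (adjusted p = 0.57, limma). No member of the muscle list and 2 of 32 of the cuticle list differed between levels, with medians of -0.08 and -0.15. The medians of these lists against the control were -0.76 and -1.42 in the most depressed sublines. Larval serum and fat body proteins, in contrast, were lower in the least depressed sublines in 2 of 3, with a median of -1.85, and in 0 with the codes in the model. The difference of Cht5 between the levels was -0.68 (adjusted p = 0.018, limma, and 0.313 with the codes).

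Of 40 probe sets of the endoplasmic reticulum and secretory pathway 31 were higher in the least depressed sublines and 1 lower, and with the codes in the model 21 and 0. In the accessory gland list 28 of 45 were higher and 1 lower, and 10 and 0 with the codes. Digestive lists were not alike. All 5 mannosidases, 9 of 11 Jonah proteases and 5 of 9 trypsins were higher and 0 lower (4, 5 and 5 with the codes), whereas maltases and amylases had 1 of 11 higher and 1 lower, and lysozymes 0 of 3. LManIII had a median of 9.57 in the least and 7.28 in the most depressed sublines, and 7.91, 8.91 and 8.45 in the control, which therefore lay between them. Jon99Fi, at 11.45, 11.63 and 11.77 in the control, had medians of 11.71 and 9.71 and a difference of 2.19 between the levels (adjusted p = 0.021, limma, but 0.481 with the codes in the model). AsnS was at 8.82 in the median of the least depressed and at 7.93 in that of the most depressed sublines, close to the 7.64, 7.69 and 7.93 of the control. The difference between the levels was 0.92 for AsnS (adjusted p = 8.9e-07, limma), and 0.99 with the codes in the model (adjusted p = 0.000386).

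Several genes that had fallen against the control were also lower than in the most depressed sublines. Of 79 probe sets of oxidative phosphorylation 38 were lower and 0 higher in the least depressed sublines, but 0 were lower with the codes in the model. For pirk the medians were 6.84 in the least and 8.24 in the most depressed sublines, with the control from 9.23 to 9.43 (difference between levels -1.10, adjusted p = 0.0013, limma). Rel followed the same order with 9.44, 10.09 and control arrays from 10.34 to 10.64, and bmm with 9.77, 10.67 and from 11.02 to 11.11. The medians of the 3 genes had the same order. With the codes in the model bmm was past the threshold between levels (adjusted p = 0.00575, limma), and pirk and Rel were not (0.0615 and 0.0791). Eggshell markers had means of 6.40, 7.45 and 5.93 in 3 most depressed sublines, and of at most 5.07 in the least depressed ones, and 1045 probe sets differed between the levels without these 3 and the 2 least depressed arrays with yolk transcripts. Yolk means of 9.30 and 7.97 were found in 2 further most depressed arrays. Without all 7 inbred arrays with a yolk mean over 7 there were 802, 583 higher and 219 lower, of which 6 lower were of oxidative phosphorylation.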

How the data were processed

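Total RNA of whole adult males was hybridized to 27 Affymetrix Drosophila Genome 2.0 arrays, of which 15 entered the main fit. The authors deposited log2 values made by RMA (background adjustment, quantile normalization and summary per probe set), with Partek 7.3.3 and affy per the submitters' processing notes. Quantile normalization gives the arrays like distributions, so levels are relative within an array. The present calls and a table of inbred arrays alone were not used here, and 183 control probe sets were left out. Of 18769 probe sets the upper 9384 by their maximum in any array were tested with limma 3.58.1 in R 4.3.3 (lmFit, contrasts, eBayes with trend), with 5 groups and the mean of the 4 line means minus the control as the contrast, 2-sided, with Benjamini-Hochberg adjustment over all probe sets. Lines were compared with each other by the F test over the 12 least depressed arrays. Scripts were tested on simulated data. Arrays give no depth, so the number of arrays limits the precision.

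Genes named were, among probe sets of 1 gene, the 12 largest rises and falls with the 4 lines on the same side, up to 4 members of each list, the 3 largest rises and falls of each line, and the 8 widest ranges between lines. Any other gene was chosen after its values were seen, as was the comparison with the most depressed sublines. The members and lists were chosen with earlier results of these data known. Alternatives were the filter, scaling, variance prior, array weights, all 27 arrays, line means as replicates, a replicate block, sample codes, and leaving out single arrays, lines or the arrays with yolk transcripts.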

Additional observations from a re-analysis of the deposited data

Results flagged for a closer look

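The 4 lines of least depressed sublines differed from each other in 419 probe sets (limma F test over 12 arrays, adjusted p under 0.05), 4.47% of those tested. Of the 147 genes named by rule 19 were among them, but 8 of the 19 were named because they passed this test. The share among named genes is thus partly set by the naming. The range of the 4 line means (log2) was 5.05 for Desat2, 4.26 for Pis, 4.21 for CG15263, 3.99 for CG7900, 3.97 for CG10725, 3.87 for CG13325, 3.85 for CG13658 and 3.84 for CG15369, which are the widest of all. It was 3.36 for CG31832 and 2.92 for the lysozyme LysP. Among members of the gene lists it was 2.24 for Lsp2, 1.86 for tobi, 1.74 for ninaD, a scavenger receptor for carotenoid uptake, 1.33 for Ugt304A1 and 1.04 for Ugt35C1. The range was under 1 for the light receptor cry (0.86), Hsc70-1 (0.43), Npc2f (0.41) and the protease Jon65Aiv (0.39).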

How the results depend on the processing

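Calls in the mean of the 4 lines went from 3261 higher and 1509 lower to 1532 and 859 with a stricter filter (4692 probe sets of highest maximum), where fewer were tested. They were 1379 and 878 with the sample code set in the model, and 1151 and 877 with the arrays of 1 low code, where fewer samples entered. Centring gave 2170 higher, and no filter gave 2526 lower. Leaving out 1 array gave from 2377 to 3524 higher and from 1161 to 1568 lower. In line 5 the calls were 2115 with the stricter filter, 2636 without the arrays with yolk or oocyte transcripts, and from 2994 to 3600 without 1 array. In line 7 they were 1792 with the stricter filter, 5213 with array weights (the cause was not tested) and from 2412 to 3782 without 1 array. Line 12 had 2147 with the stricter filter and from 3232 to 3796 without 1 array, and line 15 had 2009 and from 2849 to 3528. The F test gave 148 without the yolk arrays and from 208 to 501 without 1 array. The 1426 differences between levels became 802 without the inbred arrays with a yolk mean over 7 and 381 with the sample codes in the model, both chosen after seeing the data. No named gene changed the sign of its difference from the control in the settings tried. Signs were compared for the named genes only.

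Same-numbered arrays did not deviate together (median correlation 0.00283 over 30 pairs, 4 over 0.1), so the numbers do not pair the samples. With the replicate block there were 3216 higher and 1495 lower calls, 4001, 3370, 4124 and 3796 in lines 5, 7, 12 and 15, and 297 by the F test. Of the named genes 31 lost their call with the sample codes in the model, 28 with the arrays of 1 low code and 7 with centring. With line means as replicates 4 lost it: Lsp2, LysP, ninaD and CG31832 (adjusted p = 0.291, 0.251, 0.0807 and 0.0526, limma). The 3 control arrays stand for 1 population, and the sample codes are unevenly spread over the groups, so their part in the differences was not fully separated.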
